A study of Mus musculus with 8 samples.

Results

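Processed pseudogenes are copies of messenger RNAs that were reverse transcribed and inserted back into the genome. They were taken here as every transcript whose deposited annotation field names it a processed pseudogene. The rule used the annotation alone and no measured value. It chose 6876 of 117667 listed transcripts (5.84%), each from a different gene, and 553 of them carry the suffix -ps in their symbol. Of the 6876 members, 1776 were at 0 in all 8 libraries, 5100 were above 0 in at least 1 library and 434 in all 8.

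The transcripts were quantified in 8 mouse RNA sequencing libraries, 2 from each of 4 groups. Germinal vesicle oocytes (GV) are arrested before the first meiotic division, and per the labels they came from mice given 5 units of PMSG, a gonadotropin, 48 h ahead of an injection the labels do not specify, and were kept in medium with 2 µM milrinone, which holds the arrest. Oocytes at metaphase of the second division (MII) carry the same growth text in the labels, with no maturation step. Embryonic stem cells (ESC) grew in 15% serum with LIF plus PD0325901 and CHIR99021, inhibitors of MEK and GSK3, and in vitro epiblast cells (EpiC) were plated for 24 h, lost LIF and inhibitors and were collected about 56 h later. The strain of the mice, the origin of the cell line, the number of oocytes per library and the independence of replicates are not given in the sources used here.

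A processed pseudogene usually lacks introns and a promoter of its own, and genes with abundant mRNA in the germ line have left the most copies. In mouse oocytes, transcripts of some pseudogenes pair with the mRNA of their parent gene, and Dicer cuts the double strand into endogenous small interfering RNAs that act on the parent. Copies of Rangap1 and Ppp4r1 are known members of this group.

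The stretches below show how far a copy can be told from its parent. Each member is set against the coding sequence of its closest coding gene over 90 bases without gaps, chosen for a share of differing bases near that of the whole alignment. Letters are in lower case, and capitals mark bases that differ between the pair. All are from GENCODE M21 on GRCm38, 5′ to 3′.

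Rps23-ps1: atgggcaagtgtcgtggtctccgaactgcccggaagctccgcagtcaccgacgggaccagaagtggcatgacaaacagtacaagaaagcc

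Rps23: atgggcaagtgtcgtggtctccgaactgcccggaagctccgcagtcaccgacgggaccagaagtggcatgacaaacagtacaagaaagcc

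Rps23-ps1 (chr3:37714740-37715164, plus strand) copies Rps23, a protein of the small ribosomal subunit, and no base differed over this stretch, with 100% identity over the whole copy. It is shown because such copies were the most abundant and a read within them cannot be told from one of the parent.

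Gm7162: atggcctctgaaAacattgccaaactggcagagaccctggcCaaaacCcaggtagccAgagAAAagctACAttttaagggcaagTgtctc

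Rangap1: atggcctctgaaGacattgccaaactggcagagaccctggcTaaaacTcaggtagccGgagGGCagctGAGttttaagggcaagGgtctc

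Gm15681: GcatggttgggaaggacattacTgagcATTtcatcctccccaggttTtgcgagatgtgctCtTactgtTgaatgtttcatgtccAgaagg

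Ppp4r1: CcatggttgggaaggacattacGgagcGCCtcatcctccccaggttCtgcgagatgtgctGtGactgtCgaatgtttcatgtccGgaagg

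The parent Rangap1 lies at chr15:81704248-81745530 on the minus strand and Ppp4r1 at chr17:65782573-65841926 on the plus strand. Gm7162 (chr17:12819819-12820842, minus strand) and Gm15681 (chr8:99145386-99148089, minus strand) are shown as the copies of Rangap1 and Ppp4r1 that were found in oocytes. They differed from their parents at 11 and 10 of these 90 bases.

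Gm5705: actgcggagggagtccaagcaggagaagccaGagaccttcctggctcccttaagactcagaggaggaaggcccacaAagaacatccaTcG

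Eif4e1b: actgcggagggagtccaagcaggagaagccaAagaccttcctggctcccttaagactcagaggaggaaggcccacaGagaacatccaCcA

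Gm21542: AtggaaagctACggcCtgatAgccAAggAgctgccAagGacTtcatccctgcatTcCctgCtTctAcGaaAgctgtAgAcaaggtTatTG

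Gapdh: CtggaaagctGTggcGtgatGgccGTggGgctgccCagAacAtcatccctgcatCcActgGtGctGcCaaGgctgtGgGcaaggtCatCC

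Gm5705 (chr1:162628357-162629067, minus strand) is a close copy of Eif4e1b, a cap-binding protein of oocytes, with 4 differing bases. Gm21542 (chr19:23666591-23667583, plus strand) is a diverged copy of Gapdh, the glycolytic enzyme, with 23 differing bases. It was the 1 member called higher in EpiC than in ESC, and Gapdh itself lies at chr6:125161715-125166467 on the minus strand.

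The tables were made with kallisto, which assigns reads by words of 31 bases at its default, so a word that lies in more than 1 listed transcript cannot place a read. For each member the share of its 31-base words that lie in no other listed transcript, called own words here, was computed from the matched sequences. Of the 6670 members with such a word, 323 had no own word, 1494 had some but under 50%, and 4853 had 50% or more. The other 206 had no sequence of the same version and length, or were shorter than a word. The median share was 84.1%, between quartiles of 45.4% and 98.7%. The closest coding gene, called the parent here, was found for 6146 members and 1950 parents. The match covered at least 50% of the member at 70% identity or more, which describes likeness and is no proof of descent. Median identity was 89.6%, and it was 97.9%, 97.0% and 87.1% for members with no own word, under 50% and 50% or more. Gapdh had 342 copies, the ribosomal protein genes Rpl7a, Rps2 and Rpl21 had 117, 98 and 90, and Hmgb1, a chromatin protein, had 100. In all, 1635 members had a parent among 83 genes of cytosolic ribosomal proteins. A single exon was annotated for 6070 of 6672 members (91.0%). Of the members, 4720 lay between genes, 1034 in an intron of a gene on the opposite strand and 695 in an intron on the same strand.

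Libraries differed in ways that touch the members. Total estimated counts ran from 47463546 to 196788239, and replicate 2 was the deeper library in all 4 groups. The gene model Gm42418, which overlaps a ribosomal RNA gene, held 14.7% and 22.7% of the counts in replicate 2 of ESC and EpiC against 0.0306% and 0.0255% in replicate 1. Oocyte markers (Zp3, Gdf9, Bmp15 and Oosp1) summed to 12620 to 17065 TPM in oocyte libraries and to at most 10.9 TPM in cultured ones, in which Oosp1 was at 0. Epiblast markers (Fgf5, Pou3f1 and Otx2) summed to 149 and 69.97 TPM in EpiC and to at most 6.91 TPM elsewhere. The 5 granulosa markers summed to 29.3 to 130 TPM in oocytes and 4.10 to 7.94 TPM in cultured cells. Cyp19a1 led them in 3 of the 4 oocyte libraries and Inha in GV replicate 2, and Foxl2 was at or below 0.249 TPM in all 8. Amhr2 ran the other way, at 0.0265 to 2.79 TPM in oocytes and 3.59 to 7.54 TPM in cultured cells. Fibroblast and blood markers summed to at most 3.72 and 1.44 TPM. Across tested members, which are not independent, log2 values of replicates correlated at 0.928 to 0.956.

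Members took a larger part of the reads in cultured cells than in oocytes. GV replicates 1 and 2 gave 0.508% and 0.746% of their estimated counts to members, those of MII 0.250% and 0.328%, those of ESC 1.91% and 1.86%, and those of EpiC 1.97% and 1.99%. The means were 0.627 ± 0.168% in GV, 0.289 ± 0.0557% in MII, 1.88 ± 0.0370% in ESC and 1.98 ± 0.0169% in EpiC (SD, n = 2), with no overlap between oocytes and cultured cells. Of TPM, which divides by length, they held 2.69 ± 0.462%, 1.49 ± 0.229%, 6.15 ± 0.260% and 5.88 ± 0.570% (SD, n = 2). All of these are shares of each library's own total and give no amount of RNA per cell. The number of cells and the RNA content per cell cannot be told apart in these bulk samples. Most of this signal lay in members that share most of their 31-base words with other listed transcripts, parents or other copies. Members with 50% or more own words, 4853 of the 6876, held 0.0382 ± 0.000566% of the counts in GV, 0.0222 ± 0.00157% in MII, 0.0540 ± 0.0121% in ESC and 0.0532 ± 0.0259% in EpiC (SD, n = 2). In EpiC these were 0.0349% in replicate 1 and 0.0716% in replicate 2. GV replicate 1 at 0.0378% thus lay above EpiC replicate 1. The 10 highest members of each library held 31.3% to 57.5% of the TPM of all members. Copies of ribosomal protein genes held 0.192 ± 0.0613% of all counts in GV, 0.0120 ± 0.00565% in MII and 0.934 ± 0.00870% in ESC (SD, n = 2). Copies with other parents held 0.321 ± 0.0533%, 0.259 ± 0.0471% and 0.899 ± 0.0412% (SD, n = 2).

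**Figure D1:**
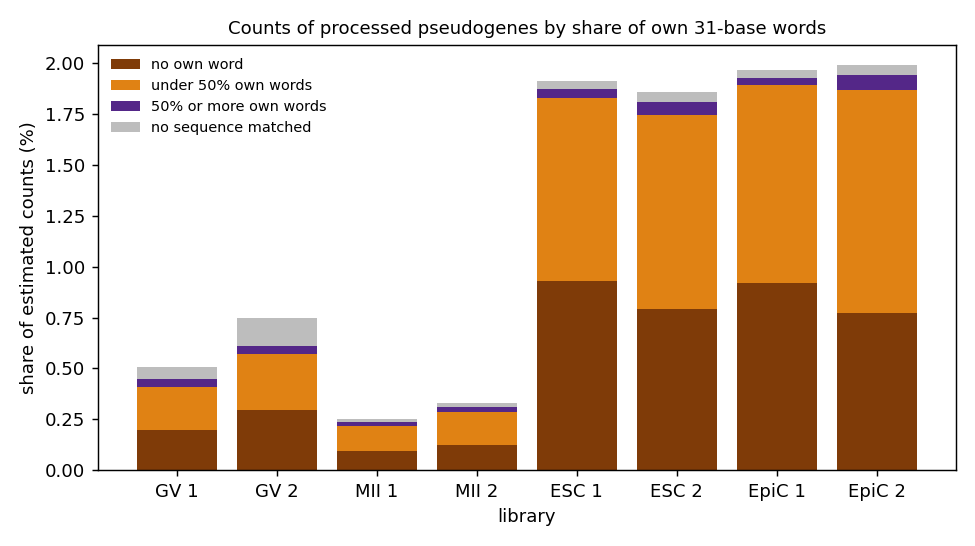
Share of all estimated counts (%) held by processed pseudogenes in each library, stacked by the share of own 31-base words. Bars end between 0.250% and 0.746% in the oocyte libraries and between 1.86% and 1.99% in the cultured ones, and the layer with 50% or more own words is thin in all 8.

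The most abundant members were copies of ribosomal protein genes that match the parent almost exactly. Values below give replicate 1 and replicate 2 of each group in the order GV, MII, ESC and EpiC, and are TPM where no other unit is named. Gm7536 (chr3:24333068-24333511, plus strand, in an intron of Naaladl2 on the opposite strand) is identical to Rpl27a, of the large ribosomal subunit, and had no own word. It was listed at 383 and 521, 11.9 and 26.9, 3894 and 3255, and 4069 and 2952 TPM. Rpl27a itself was listed at 27.4 and 26.5, 2.46 and 2.41, 599 and 528, and 713 and 650 TPM. The copy was thus assigned 82.0% to 95.2% of the TPM of the pair, although no word separates them, and kallisto's split is all that these numbers show. Rps23-ps1, the copy of Rps23 printed above, was listed at 156 and 239, 2.59 and 15.2, 3333 and 2969, and 3044 and 2660 TPM, which was 77.8% to 89.5% of its pair.

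Both copies were lowest in MII, intermediate in GV and high in cultured cells, as were their parents. Gm7536 was lower in GV than in ESC by a log2 fold change of −2.63 ± 0.48 (SE; edgeR quasi-likelihood test with Benjamini-Hochberg adjustment, adjusted p = 0.00141) and lower in MII than in EpiC by −5.97 ± 0.56 (adjusted p = 2.57e-05). Rps23-ps1 differed by −3.64 ± 0.73 (adjusted p = 0.00253) and −6.76 ± 0.85 (adjusted p = 0.000131). Gm10443, a copy of Rps28 with no own word, was listed at 265 and 488, 54.1 and 98.4, 2699 and 3133, and 2032 and 3019 TPM. Gm4332, a copy of Rps20 at 99.7% identity with 1.6% own words, was listed at 329 and 501, 4.74 and 23.9, 2862 and 2510, and 2373 and 1993 TPM. Of the other 6 of the 10 most abundant members, Rpl31-ps8, Rps16-ps2, Rpl28-ps1 and Gm9794 copy ribosomal protein genes, Tpt1-ps3 copies Tpt1, a translationally controlled protein, and Gm10123 copies Ppia, a cyclophilin. All 10 had a lower mean TPM in MII than in GV, ESC or EpiC, and Tpt1-ps3, at 287 to 725 TPM in oocytes and 1318 to 2105 TPM in cultured cells, passed the test in no comparison.

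Some copies with no own word were high in oocytes, again beside the parent. Gm15452 is identical to Cks2, a subunit of cyclin-dependent kinases, and lies at chr1:8791923-8792162 in an intron of Sntg1 on the same strand. It was listed at 845 and 1014, 1998 and 2100, 171 and 216, and 141 and 242 TPM, with Cks2 at 155 to 1211 TPM. It was higher in GV than in ESC by a log2 fold change of 2.62 ± 0.46 (edgeR quasi-likelihood test, adjusted p = 0.00124) and higher in MII than in EpiC by 4.84 ± 0.51 (adjusted p = 5.01e-05). Gm9762, identical to Ube2d2a, a ubiquitin-conjugating enzyme, was listed at 232 and 158, 854 and 655, 88.9 and 66.2, and 136 and 60.1 TPM. Its differences were 1.67 ± 0.38 (adjusted p = 0.00445) and 4.47 ± 0.42 (adjusted p = 2.7e-05).

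Other near-identical copies were assigned reads in 1 kind of cell and almost none in the other while the parent was present in both. Gm12191, at 99.7% identity with Rpl30 and with no own word, was listed at 0.0202 and 0.0739, 2.05 and 5.06, 1490 and 1215, and 1410 and 845 TPM, with Rpl30 at 435 and 456 TPM in GV and 1642 and 1165 TPM in ESC. BC002163, at 99.4% identity with Ndufs5 of respiratory complex I and with 19.03% own words, was at 0 in all 4 oocyte libraries, at 94.6 and 68.3 TPM in ESC and at 65.5 and 60.1 TPM in EpiC. Ndufs5 was at 150 and 206 TPM in GV. Against a floor of 3 counts per library, BC002163 was at least 321-fold lower in GV than in ESC (adjusted p = 8.04e-05). The reverse held for Rps12l1, at 96.4% identity with Rps12 and with no own word, which was listed at 495 and 343, 14.1 and 71.0, 0 and 0.322, and 0 and 0 TPM. Rps12 was at 3768 and 3302 TPM in ESC. By the listed counts Rps12l1 was at least 795-fold higher in MII than in EpiC (edgeR quasi-likelihood test, adjusted p = 0.000166). As it had no own word, this fold describes how kallisto split shared reads. The floor covers counting error only and does not bound that split.

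GV oocytes were compared with ESC in 1 fit over all 25045 genes with enough counts, on counts scaled by TMM. Of the 6876 members, 1698 passed the filter on low counts and 5178 did not. Of the 1698, 221 were higher in GV (13.0%; background of all genes tested 28.3%) and 586 lower (34.5%; background 31.3%). The median log2 fold change was −2.25 for these members and −0.51 for all genes tested. Of the 693 tested members with 50% or more own words, 118 were higher (17.0%) and 209 lower (30.2%), beside 28.3% and 31.3% of all genes. The count of lower members was 240 without GV replicate 1, 307 without GV replicate 2 and 305 without ESC replicate 2, while the count of higher members was 192, 161 and 168 in these fits. Calls over all genes fell in these fits as well. A member that passed the filter only through its high group had to differ, so the counts of members describe the tested members alone. The sum of the granulosa markers was higher in oocytes too, though Amhr2 was lower there. The part of granulosa cells in the counts was not tested.

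The copies with 50% or more own words were compared between groups by detection. At 1 TPM or more in both libraries of a group, members with 50% or more own words numbered 101 in GV, 41 in MII, 115 in ESC and 97 in EpiC, and 236 in any group. GV and MII shared 33, which is 32.7% of the GV set and 80.5% of the MII set. ESC and EpiC shared 71, which is 61.7% and 73.2%. GV and ESC shared 12, which is 11.9% and 10.4%. These shares between pairs of groups were not computed over all listed transcripts or genes, so they describe the members alone. In all, 95 were found in oocytes only (40.3%), 127 in cultured cells only (53.8%) and 14 in both (5.93%). With the same cut over all 117667 listed transcripts, 42189 were found in any group, 19.4% of them in oocytes only, 39.5% in cultured cells only and 41.0% in both, and over genes 58.2% of 18247 were in both. The median of mean TPM over the 8 libraries was 1.33 for the 236 members and 3.32 for the 42189 transcripts, so the members lay nearer the cut of 1 TPM, and the part of level in these shares was not tested. The 217 of the 236 that had a parent were at a median identity of 90.9% with it, against 87.1% over the 4389 such members with 50% or more own words.

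Gm7162, the copy of Rangap1, the activator of the Ran GTPase, was listed in oocytes only. It was found at 17.5 and 13.2 TPM in GV and at 17.6 and 27.01 TPM in MII, and at 0 in all 4 cultured libraries, with 87.7% own words. Rangap1 ran the other way, at 10.7 and 13.4 TPM in GV, 0.356 and 1.06 TPM in MII, 118 and 118 TPM in ESC and 161 and 135 TPM in EpiC. Gm7162 was at least 420-fold higher in GV than in ESC (adjusted p = 4.9e-05) and at least 1190-fold higher in MII than in EpiC (adjusted p = 2.19e-05), by edgeR's quasi-likelihood test. It lies in an intron of Airn, a long noncoding RNA, on the opposite strand. Airn was at 2.24 to 3.71 TPM in oocytes and 0.706 to 5.43 TPM in cultured cells, and these ranges overlap. Gm16574 (chr17:12818793-12819537, plus strand), a second copy of Rangap1 beside Gm7162 on the other strand, was at 0.0988 to 0.160 TPM in oocytes and 0 to 0.943 TPM in cultured cells, and passed the test in no comparison.

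Gm15681, the copy of Ppp4r1, a regulatory subunit of protein phosphatase 4, was listed at 0.477 and 1.06, 4.06 and 3.11, 0 and 0.0284, and 0 and 0.0257 TPM with 92.7% own words. Ppp4r1 was at 11.5 to 14.8 TPM in oocytes and 31.8 to 52.3 TPM in cultured cells. Gm15681 was higher in GV than in ESC by a log2 fold change of 5.62 ± 1.09 (edgeR quasi-likelihood test, adjusted p = 0.00208) and higher in MII than in EpiC by 9.05 ± 1.24 (adjusted p = 0.000211). It lies in an intron of the cadherin gene Cdh8 on the same strand. Cdh8 was at 5.11 and 2.98 TPM in GV, 1.29 and 1.53 TPM in MII and at most 0.533 TPM in cultured cells, so host and copy were both higher in oocytes than in cultured cells, while from GV to MII the host had lower values and the copy higher ones. The part of host reads in Gm15681 was not tested. Of 9 members with a parent in a list of 5 genes known for pseudogene small RNAs (Rangap1, Ppp4r1, Hdac1, Kif4 and Pdzd11), 4 were tested. Gm7162 and Gm15681 were higher in GV than in ESC, Gm8022, a copy of the deacetylase Hdac1, was lower (0 in all oocyte libraries and 0.129 to 0.486 TPM in cultured cells, adjusted p = 0.0108), and Gm16574 did not pass. The call of Gm8022 was lost without GV replicate 1 (adjusted p = 0.054) and without GV replicate 2 (adjusted p = 0.079).

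Further copies with own words marked oocytes at higher levels. AA619741, at 84.0% identity with Phf19, a partner of Polycomb complex 2, was listed at 48.9 and 81.7, 271 and 269, 0 and 0.113, and 0 and 0.0868 TPM. It held 85.1% to 90.4% of the TPM of the pair in oocytes, where Phf19 was at 8.56 to 35.1 TPM. Its log2 fold change was 9.89 ± 0.84 for GV against ESC (adjusted p = 2.47e-05) and 13.4 ± 0.94 for MII against EpiC (adjusted p = 8.1e-06), by edgeR's quasi-likelihood test. Cldn25-ps (chr9:49047602-49048294, minus strand) bears the name of a claudin, had 100% own words and no parent under the rule. It was listed at 104 and 134, 20.9 and 19.5, 0 and 0, and 0.0554 and 0 TPM, at least 2290-fold higher in GV than in ESC (adjusted p = 1.61e-05).

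Gm5705, the copy of Eif4e1b, was listed at 49.5 and 56.1 TPM in GV and 5.04 and 4.65 TPM in MII, and at 0 in all cultured libraries. It was at least 1020-fold higher in GV than in ESC (adjusted p = 3.38e-05). Eif4e1b was at 2008 and 2192 TPM in GV, 406 and 376 TPM in MII and at most 1.45 TPM in cultured cells, so copy and parent were high in the same cells, and the copy held 1.22% to 2.49% of the pair in oocytes. Gm12633 (chr4:90359622-90361326, minus strand), at 81.9% identity with the zinc finger gene Zfp352, was at 55.2 and 24.8, 0.701 and 1.64, 0 and 0.0103, and 0.0572 and 0.224 TPM. Zfp352 was at 0.237 to 0.655 TPM in GV and 1.04 to 5.13 TPM in cultured cells. With 2 counts in ESC, the ratio of GV to ESC was 5140 with a 95% counting interval of 1420 to 42400 (adjusted p = 5.07e-05). Gm11474, a copy of Uqcrh of respiratory complex III, was at 26.2 and 28.9 TPM in GV, 0.736 and 0.376 TPM in MII and at 0 in ESC, at least 126-fold higher in GV than in ESC (adjusted p = 0.000365). Uqcrh was at 265 to 581 TPM in both of these groups.

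**Figure D2:**
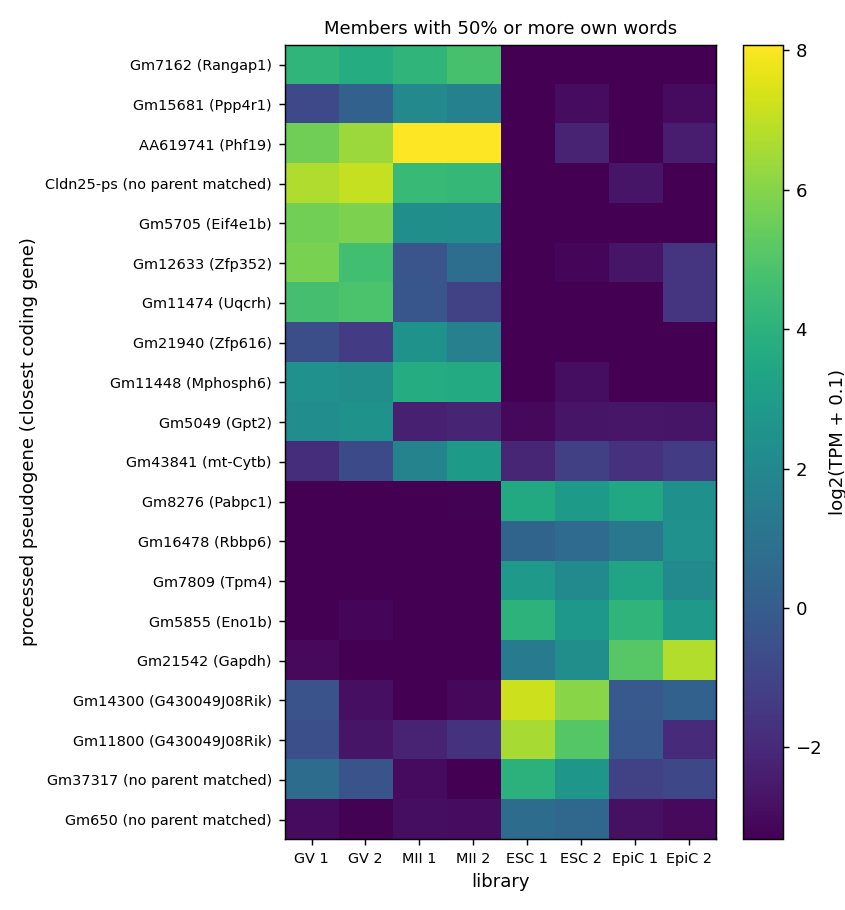
Values of 20 members with 50% or more own words in each library, as log2(TPM + 0.1) by colour, with the closest coding gene in parentheses. The upper 11 rows are higher in oocyte libraries or in 1 oocyte stage, the next 5 are at or near 0 in oocytes, and the lowest 4 are high in ESC alone.

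Other copies with own words were found in cultured cells. Gm8276 (chr3:59431537-59433348, plus strand) copies Pabpc1, the poly(A)-binding protein, at 92.4% identity. It was listed at 0 in both GV libraries, 0 and 0.00547 TPM in MII, 12.04 and 7.34 TPM in ESC and 11.5 and 5.13 TPM in EpiC, at least 354-fold lower in GV than in ESC (adjusted p = 5.33e-05). Pabpc1 was at 29.6 and 41.4 TPM in GV and 1276 and 1106 TPM in ESC. Gm16478, which copies Rbbp6, a ubiquitin ligase, and Gm7809, which copies tropomyosin Tpm4, were at 0 in all 4 oocyte libraries. Gm16478 was at 1.18 and 1.504 TPM in ESC and 2.28 and 5.29 TPM in EpiC, at least 180-fold lower in GV than in ESC (adjusted p = 0.00027) and at least 218-fold lower in MII than in EpiC (adjusted p = 0.000175).

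Gm7809 was at 7.13 and 4.30 TPM in ESC and 10.1 and 4.28 TPM in EpiC, at least 74.0-fold lower in GV than in ESC (adjusted p = 0.000424). Gm5855, at 96.5% identity with the enolase gene Eno1b, was at 0 and 0.0129 TPM in GV, 0 in MII, 16.5 and 6.75 TPM in ESC and 17.5 and 7.04 TPM in EpiC, at least 112-fold lower in MII than in EpiC (adjusted p = 0.000133). Eno1b was likewise at or below 0.0307 TPM in oocytes and at 347 to 927 TPM in cultured cells. Gm13223, a copy of Cdv3, was at 0 in GV and at 2.41 and 8.14 TPM in ESC, while Cdv3 was at 239 and 161 TPM in GV and 168 and 134 TPM in ESC. It was at least 104-fold lower in GV than in ESC (adjusted p = 0.00247). All folds in these paragraphs use counts scaled by TMM and the floor of 3 counts per library, and the adjusted p-values are from edgeR's quasi-likelihood test.

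MII oocytes were compared with EpiC in the same fit. Of the 1698 tested members, 217 were higher in MII (12.8%; background 28.5%) and 751 lower (44.2%; background 39.6%), with a median log2 fold change of −3.92 against −1.23 for all genes. Of the 693 with 50% or more own words, 101 were higher (14.6%) and 245 lower (35.4%), beside 28.5% and 39.6% of all genes. The count of lower members was 406 without MII replicate 1, 340 without MII replicate 2 and 437 without EpiC replicate 2, while that of higher members was 212, 162 and 197 in these fits. Calls over all genes fell in both directions in these fits as well. On log2(TPM + 1), which scales to the whole library, 29.1% of all calls were higher in MII, against 41.8% with TMM. Gm21940, at 73.8% identity with the zinc finger gene Zfp616, was at 0.573 and 0.303 TPM in GV, 5.54 and 3.07 TPM in MII and 0 in all cultured libraries, at least 441-fold higher in MII than in EpiC (edgeR quasi-likelihood test, adjusted p = 6.56e-05). Zfp616 was at 32.6 to 209 TPM in oocytes and at most 0.00387 TPM in cultured cells. Gm11448, a copy of Mphosph6 of the RNA exosome, was at 5.37 and 4.82 TPM in GV and 13.3 and 12.4 TPM in MII. It reached at most 0.0348 TPM in cultured cells and was at least 214-fold higher in MII than in EpiC (same test, adjusted p = 4.48e-05). Mphosph6 had means of 1578 TPM in GV, 4581 TPM in MII, 96.1 TPM in ESC and 73.9 TPM in EpiC. Copy and parent were thus high in the same cells, and the copy held 0.259% to 0.324% of the pair in oocytes. Gm44715, the member with the closest match to the pheromone receptor Vmn2r79, was at 0 in MII and at 2.55 and 8.37 TPM in EpiC, at least 247-fold lower in MII (adjusted p = 0.000816), while Vmn2r79 was at or below 0.0163 TPM in all 8 libraries.

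Between the 2 oocyte stages fewer members differed. Of the 1698, 97 were higher in MII than in GV (5.71%; background 17.4%) and 188 lower (11.1%; background 22.2%), with a median log2 fold change of −1.26 against −0.53 for all genes. With TMM, 34.0% of the member calls were higher in MII, against 12.8% on log2(TPM + 0.1), 19.1% on log2(TPM + 1) and 44.1% with DESeq2. Leaving out any 1 of the 4 oocyte libraries lowered the counts of members, and calls over all genes fell as well. The count of higher members was 39 without GV replicate 1, 45 without GV replicate 2, 63 without MII replicate 1 and 40 without MII replicate 2. The count of lower members was 135, 96, 100 and 121. The median of all genes was −0.53 with TMM, −0.18 on log2(TPM + 1) and −0.19 with DESeq2, so a direction here is relative to the bulk of mRNAs.

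Among copies with own words, AA619741 was higher in MII than in GV by a log2 fold change of 3.19 ± 0.57 (adjusted p = 0.00212) and Gm21940 by 4.46 ± 0.69 (adjusted p = 0.00207). Gm43841, a copy of the mitochondrial cytochrome b gene mt-Cytb in the nuclear genome, was at 0.180 and 0.492 TPM in GV and 3.35 and 7.43 TPM in MII, and rose by 5.10 ± 0.95 (adjusted p = 0.00255). The mitochondrial gene itself was at 1911 and 1565 TPM in GV and 11106 and 8777 TPM in MII. Gm12633 fell by 3.88 ± 0.77 on the log2 scale (adjusted p = 0.00357) and Gm5049, a copy of the transaminase gene Gpt2, fell by 4.30 ± 0.72 (adjusted p = 0.00152). Gm5049 was at 4.68 and 5.47 TPM in GV and 0.0992 and 0.128 TPM in MII, while Gpt2 was at 12.9 and 18.3 TPM in GV and 38.2 and 45.6 TPM in MII. All these calls are from edgeR's quasi-likelihood test, and that of AA619741 missed the threshold with transcripts in place of genes (adjusted p = 0.0533).

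Several stage differences of named members lost their call when 1 library was left out, which leaves 1 library in that group. In the leave-out fits named next, the log2 fold changes kept their sign. They were 2.74 to 3.40 for Gm15681, 1.21 to 1.75 for Gm7162 and −2.14 for Gm5705. The higher value of Gm15681 in MII than in GV (3.35 ± 0.91, adjusted p = 0.0168) was lost in edgeR fits without GV replicate 1 (adjusted p = 0.103), MII replicate 1 (0.0753) or MII replicate 2 (0.0505). That of Gm7162 (1.72 ± 0.49, adjusted p = 0.0275) was lost without GV replicate 1 (adjusted p = 0.0939), GV replicate 2 (0.132) or MII replicate 2 (0.175), and on log2(TPM + 1), where it was 0.49. The fall of Gm5705 (−2.29 ± 0.50, adjusted p = 0.00958) was lost without GV replicate 2 (adjusted p = 0.059).

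EpiC and ESC differed in few members. Of the 1698, 1 was higher in EpiC (0.0589%; background 2.63%) and 9 were lower (0.530%; background 2.83%), and the median log2 fold change was 0.02 against 0.03. At an unadjusted p under 0.05 there were 71 of the 1698, where a share of 0.05 would pass with no difference between the groups. The matching count over all genes was not made. Without ESC replicate 1 the counts were 0 higher and 4 lower, without ESC replicate 2 they were 0 and 6, and without EpiC replicate 1 they were 3 and 6, by edgeR. Without either MII library 2 members were higher. Limma on log2(TPM + 1) called 22 higher and 50 lower, and DESeq2 16 and 22. Over all genes they called 1287 and 1538, and 1519 and 1416, against 659 and 708 by edgeR on all 8 libraries. Fewer of all genes were called without 1 ESC or EpiC library as well. Gm21542, the diverged copy of Gapdh with 99.0% own words, was at 0.0232 and 0 TPM in GV, 0 in MII, 2.44 and 4.82 TPM in ESC and 34.2 and 107 TPM in EpiC. It rose by 4.38 ± 0.87 on the log2 scale from ESC to EpiC (edgeR quasi-likelihood test, adjusted p = 0.0258), while Gapdh was at 5576 and 3401 TPM in ESC and 5347 and 2736 TPM in EpiC. The call was lost without ESC replicate 1 (adjusted p = 0.15), without ESC replicate 2 (adjusted p = 0.065) and without EpiC replicate 2 (adjusted p = 0.11).

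Of the 9 members lower in EpiC, Gm14300 and Gm11800 have the same closest coding gene, G430049J08Rik. Gm14300 was at 150 and 67.3 TPM in ESC and 0.800 and 1.07 TPM in EpiC and changed by −6.76 ± 1.14 on the log2 scale (adjusted p = 0.0109). Gm11800 was at 95.01 and 33.3 TPM in ESC and 0.767 and 0.157 TPM in EpiC and changed by −7.26 ± 1.25 (adjusted p = 0.0117). G430049J08Rik was at 282 and 108 TPM in ESC and 1.51 and 2.12 TPM in EpiC. With identities of 97.0% and 97.1% and own words of 54.9% and 50.5%, both copies share about as many words with other transcripts as they have of their own. Gm37317 fell from 16.1 and 6.49 TPM to 0.359 and 0.456 TPM (−4.66 ± 0.92, adjusted p = 0.0208) and Gm650 from 1.54 and 1.31 TPM to 0.0424 and 0.0232 TPM (−5.43 ± 1.01, adjusted p = 0.0166), and neither had a parent under the rule. In edgeR fits the calls of Gm37317 and Gm650 were lost without ESC replicate 1 (adjusted p = 0.11 and 0.074), without EpiC replicate 1 (0.087 and 0.065) and without EpiC replicate 2 (0.063 and 0.084), and that of Gm14300 without EpiC replicate 1 (0.059). With transcripts in place of genes, edgeR called none of the members in this comparison.

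By the role of the parent, copies of ribosomal protein genes made up the largest group. Of 1635, 506 were tested, and 32 were higher (6.32%; background of all genes 28.3%) and 149 lower (29.4%; background 31.3%) in GV than in ESC. In MII against EpiC 19 were higher (3.75%; background 28.5%) and 281 lower (55.5%; background 39.6%), and in MII against GV 4 were higher (0.791%; background 17.4%) and 76 lower (15.0%; background 22.2%). The share lower in GV was thus near that of all genes. Their TPM summed to 7868 and 10977 (GV), 479 and 922 (MII), 41444 and 39898 (ESC) and 40537 and 35928 (EpiC), next to 25785 and 35797, 4313 and 5133, 164059 and 134973, and 172578 and 130717 for the parents. Restricted to 50% or more own words, the sums were 220 and 245 TPM (GV), 109 and 122 TPM (MII), 272 and 494 TPM (ESC) and 263 and 470 TPM (EpiC). Of the 201 tested ribosomal copies with 50% or more own words, 29 were higher (14.4%) and 50 lower (24.9%) in GV than in ESC, both below the shares of all genes. Gm14276, a copy of Rps2 with 94.5% own words, was at 31.7 and 23.6, 67.3 and 70.9, 9.83 and 16.7, and 10.4 and 14.6 TPM. On counts scaled by TMM it was higher in MII than in EpiC by a log2 fold change of 3.88 ± 0.50 (edgeR quasi-likelihood test, adjusted p = 0.000142). This is more than the TPM values alone give. Rps2 was at 293 to 395 TPM in MII and 3664 and 3174 TPM in EpiC.

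Copies of 11 glycolytic genes numbered 404, most of them of Gapdh. Of 135 tested, 9 were higher (6.67%; background of all genes 28.3%) and 89 lower (65.9%; background 31.3%) in GV than in ESC, and 7 higher (5.19%; background 28.5%) and 79 lower (58.5%; background 39.6%) in MII than in EpiC. Gm7336, at 99.8% identity with Gapdh and with no own word, was at 17.8 and 24.6 TPM in GV, 4.73 and 6.48 TPM in MII, 901 and 303 TPM in ESC and 801 and 192 TPM in EpiC, and followed Gapdh. Of the 39 tested copies with 50% or more own words, 8 were higher (20.5%) and 16 lower (41.0%) in GV than in ESC. Gm8609 (95.8% own words) was at 14.9 and 9.86 TPM in GV, 2.49 and 0.889 TPM in MII and at most 0.0352 TPM in cultured cells. Gm8529 (60.1% own words) was at 7.29 and 6.80 TPM in GV, 12.6 and 12.8 TPM in MII and at most 0.0963 TPM in cultured cells, higher in GV than in ESC by a log2 fold change of 7.16 ± 0.72 (edgeR quasi-likelihood test, adjusted p = 6.14e-05). The 3 of these 39 named here peaked in different groups, Gm8609 in GV, Gm8529 in MII and Gm21542 in EpiC. They were picked by rule among called members, so their peaks do not describe the 39. Gapdh was at 72.9 to 228 TPM in oocytes and 2736 to 5576 TPM in cultured cells.

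**Figure D3:**
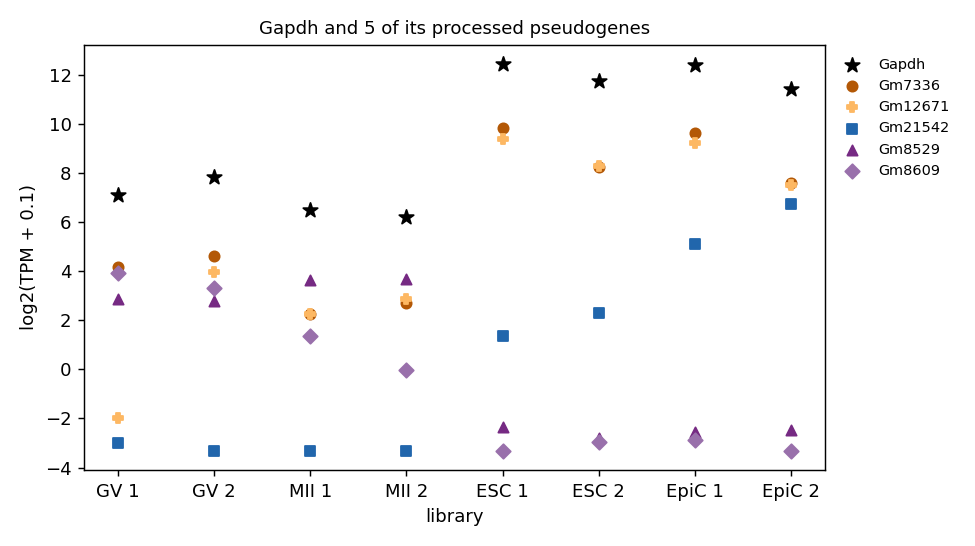
Gapdh and 5 of its copies in each library, as log2(TPM + 0.1). Gm7336 and, outside GV replicate 1, Gm12671, which have no own word, lie below Gapdh in the same order of groups, while Gm8529 and Gm8609 are high in oocytes and Gm21542 is highest in EpiC.

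Copies of 23 genes for chromatin proteins numbered 285. Of 88 tested, 14 were higher (15.9%; background of all genes 28.3%) and 28 lower (31.8%; background 31.3%) in GV than in ESC. H3f3c, an intronless copy of the histone gene H3f3a with 17.1% own words, was at 270 and 68.2, 80.1 and 44.0, 5.92 and 3.04, and 2.16 and 3.80 TPM, a log2 fold change of 5.58 ± 0.81 for GV against ESC (edgeR quasi-likelihood test, adjusted p = 0.000411). Gm13167, a copy of Hmgb2 with no own word, was at 141 and 149 TPM in GV, 39.2 and 31.9 TPM in MII and 0.283 to 4.07 TPM in cultured cells, while Hmgb2 was at 635 and 904 TPM in GV and 985 to 1455 TPM in cultured cells. Of 58 tested copies of RNA-binding and splicing genes, 9 were higher in MII than in GV (15.5%), near the 17.4% of all genes. In the same comparison 0 were lower, against 22.2% of all genes. The list median was 0.95 (log2), against −0.53 for all genes and −1.26 for all tested members. On this list Gm13092, a copy of the spliceosome gene Snrpf, was at 206 and 315 TPM in GV and 608 and 791 TPM in MII. In GV against ESC, 3 of the 58 were higher (5.17%; background 28.3%) and 19 lower (32.8%; background 31.3%).

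Of 22 tested copies of nuclear genes of oxidative phosphorylation, 5 were higher (22.7%) and 7 lower (31.8%) in GV than in ESC, where 28.3% and 31.3% of all genes were. In MII against EpiC 1 was higher (Gm11474; 4.55%, background 28.5%) and 10 were lower (45.5%; background 39.6%). Gm12338, identical to Cox7c of complex IV, was at 920 and 693 TPM in GV, 7.39 and 23.5 TPM in MII, 1170 and 1093 TPM in ESC and 1346 and 892 TPM in EpiC. It fell by 4.42 ± 0.59 on the log2 scale from GV to MII (edgeR quasi-likelihood test, adjusted p = 0.00066), and Cox7c was at 292 and 258 TPM in GV and 3.83 and 8.05 TPM in MII. The call of Gm11474 in MII against EpiC (adjusted p = 0.0413) was lost without any 1 of the 4 oocyte libraries or EpiC replicate 1 (adjusted p = 0.0603 to 0.115). Of 45 tested copies of chaperones and cyclophilins, 2 were higher (4.44%; background 28.3%) and 17 lower (37.8%; background 31.3%) in GV than in ESC. Gm15459, a copy of the heat shock gene Hspa8 at 99.7% identity with 0.2% own words, was at 0.798 and 1.12 TPM in GV, 0 in MII, 1447 and 798 TPM in ESC and 1269 and 505 TPM in EpiC, while Hspa8 was at 1080 and 1147 TPM in GV. Of 37 tested copies of translation factors, 5 were higher (13.5%) and 13 lower (35.1%) in GV than in ESC. Of 20 tested copies of cytoskeletal genes, 0 were higher and 6 lower (30.0%) in GV than in ESC. Among 27 tested copies of proteasome and ubiquitin genes 5 were higher (18.5%) and 4 lower (14.8%). Beside the 28.3% and 31.3% of all genes, the lower shares of the translation and cytoskeletal lists were near the background.

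Copies of genes typical of these cells were scarce. Of 48 copies of cell cycle genes, 7 were tested, and 4 were higher in MII than in EpiC (57.1%; background of all genes 28.5%). With 50% or more own words 2 were tested, and 0 were higher and 1 was lower. The higher ones include Gm15452 and Gm12856, a copy of cyclin B1 (Ccnb1). Gm12856 was at 1.17 to 2.00 TPM in oocytes and 0.0976 to 0.312 TPM in cultured cells. Ccnb1 itself had means of 616 TPM in GV, 1881 TPM in MII, 317 TPM in ESC and 320 TPM in EpiC. Of 15 copies of oocyte genes, 5 were tested, and 3 were higher in GV than in ESC (Gm16327, Gm16328 and Spin3-ps), beside 28.3% of all genes. The call of Gm16327 was lost in edgeR fits without ESC replicate 2 (adjusted p = 0.0828) and without GV replicate 2 (adjusted p = 0.0504). Gm16328, matched at 76.8% identity to the KH-domain gene Khdc1b, was at 6.08 and 7.84 TPM in GV, 3.40 and 0.383 TPM in MII and 0 in cultured cells, at least 16.0-fold higher in GV than in ESC (adjusted p = 0.00877, and 0.052 without ESC replicate 2, by edgeR). Spin3-ps, a copy of Spin1, was at 0.167 to 0.835 TPM in oocytes and 0 in ESC, at least 7.36-fold higher in GV (adjusted p = 0.00941, and 0.065 without ESC replicate 2). Khdc1b and Spin1 themselves were at 1350 to 5725 TPM in oocytes.

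Of 44 copies of pluripotency genes, 9 were tested, and 3 were lower in GV than in ESC by edgeR's quasi-likelihood test (Gm17771, Gm14058 and Gm13259), which is 33.3% beside 31.3% of all genes. The call of Gm13259 was lost in edgeR fits without ESC replicate 2 (adjusted p = 0.117), GV replicate 1 (0.128) or GV replicate 2 (0.0888), and with transcripts (0.0869). Gm14058, a copy of Dppa4 at 98.9% identity with 29.4% own words, was at 0.0576 and 0.0508 TPM in GV, 0 in MII, 4.05 and 5.73 TPM in ESC and 4.70 and 7.41 TPM in EpiC (adjusted p = 0.000737 for GV against ESC). Gm17771, a copy of the Rex2 gene with 47.6% own words, was at 2.85 and 0.777, 8.21 and 3.43, 13.7 and 11.8, and 10.3 and 6.33 TPM. Its call in GV against ESC (adjusted p = 0.0113) was lost without GV replicate 2 (adjusted p = 0.0604) and with transcripts (0.0841). Nanog-ps1 and Nanog-ps2 reached at most 0.532 TPM in any library, where Nanog stood at 814 and 954 TPM in ESC, and neither was tested. Gm5712, a copy of Pou5f1 with 91.7% own words, reached at most 0.189 TPM, while Pou5f1 was at 336 to 537 TPM in oocytes and 690 to 1421 TPM in cultured cells.

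Copy and parent moved together less closely where 50% or more of the words of the copy were its own. Across tested pairs, which share parents, libraries and read assignment, the log2 fold changes of GV against ESC had a Spearman correlation of 0.47 for 124 members with no own word, 0.45 for 758 with under 50% and 0.20 for 627 with 50% or more. For MII against GV the values were 0.64, 0.62 and 0.48. Where both copy and parent passed the test in GV against ESC, they went opposite ways in 6 of 48 pairs (12.5%), 25 of 279 (8.96%) and 67 of 217 (30.9%). In MII against EpiC this was 7 of 87 (8.05%), 41 of 416 (9.86%) and 76 of 284 (26.8%). Members with 50% or more own words also had fewer counts, which widens their error, and the difference between classes was not tested.

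**Figure D4:**
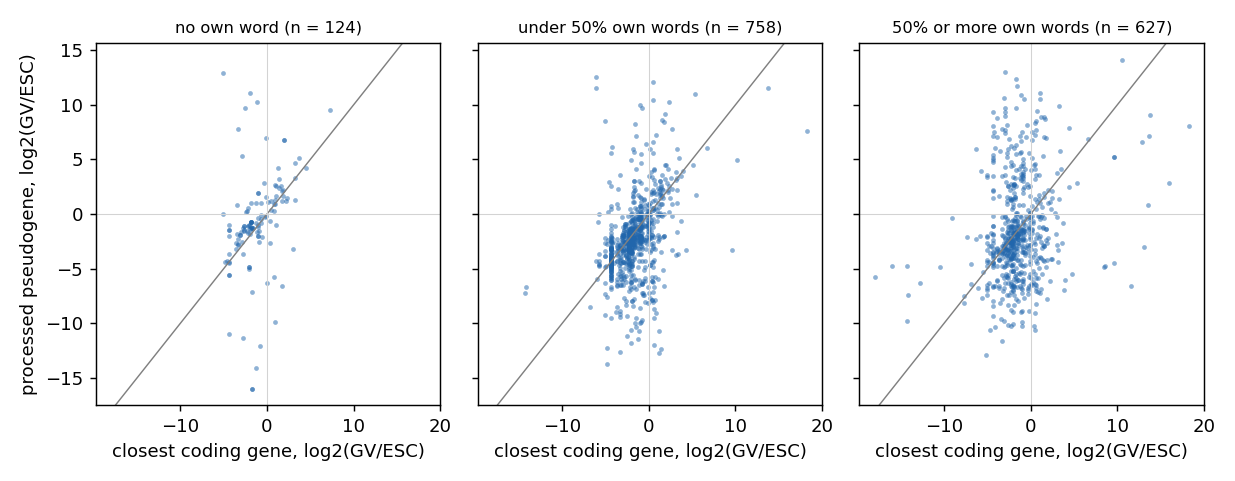
Log2 fold change of GV against ESC of each tested member (vertical) and of its closest coding gene (horizontal), in 3 panels by share of own words, with the line of equality in grey. Spearman correlations are 0.47 on the left (n = 124), 0.45 in the middle (n = 758) and 0.20 on the right (n = 627). The median absolute differences between copy and parent are 1.13, 1.29 and 2.79 (log2) in this order.

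Among members with 50% or more own words, those in an intron on the same strand were at 1 TPM or more in 3.73% and 13.6% of cases in ESC replicates 1 and 2 and in 3.54% and 13.0% in EpiC, against 3.14% and 2.75% in GV. Members between genes were detected in 2.61% and 4.56% in ESC, 2.38% and 3.96% in EpiC and 2.84% and 2.70% in GV. Those in an intron on the opposite strand were detected in 2.22% and 4.04% in ESC, 1.96% and 4.82% in EpiC and 1.30% and 1.69% in GV, so in cultured cells replicate 2 was the higher library in all 3 positions. Where the host was at 1 TPM or more, 63 of 249 members on its strand (25.3%) were detected in ESC replicate 2, and where the host was lower, 6 of 254 (2.36%). In ESC replicate 1 these were 17 of 231 (7.36%) and 2 of 272 (0.735%). The share of Gm42418 and the depth were higher in replicate 2 of both groups, and their part in this difference was not tested.

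**Figure D5:**
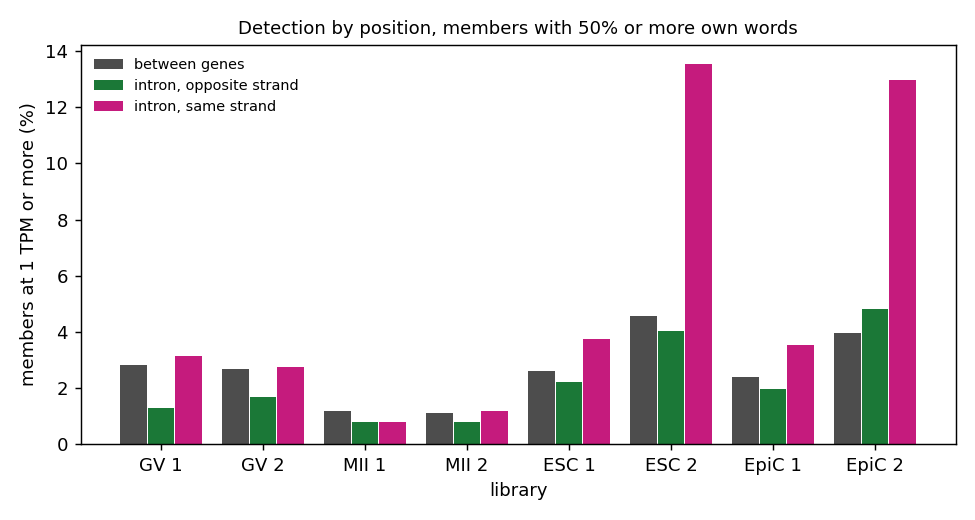
Percent of members with 50% or more own words listed at 1 TPM or more in each library, by position. The bars for introns on the same strand reach 13.6% in ESC replicate 2 and 13.0% in EpiC replicate 2 and stay at or below 3.73% in the other 6 libraries.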

How the data were processed

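RNA was made into stranded paired-end TruSeq libraries, per the labels' protocols. The authors quantified reads on mm10 with kallisto 0.43, per the submitters' processing notes, and deposited 1 table per library with estimated counts and TPM per transcript. TPM divides counts by effective length and scales each library to the same sum. Annotation release, strand setting and any poly(A) selection are not given in the sources used here. Members as well as gene lists were chosen with earlier results of these data known.

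For each gene the estimated counts of its transcripts were added and rounded. Genes were filtered with filterByExpr, which kept 25045 of 48440, and scaled by TMM. The TMM factors of replicates 1 and 2 were 1.07 and 1.15 in GV and 0.422 and 0.405 in MII. They were 1.48 and 1.46 in ESC and 1.58 and 1.39 in EpiC. Folds of MII against another group are thus shifted upward from ratios of counts per library total. One model of 4 groups and 8 libraries (4 residual degrees of freedom) was fitted with edgeR 4.0.16 (robust quasi-likelihood, R 4.3.3) and adjusted over all genes by Benjamini-Hochberg at 0.05. The SE of a log2 fold change is its size divided by the square root of F and is approximate. Replicates are separate libraries of 1 label, so p-values measure only the spread between these samples, which may be technical. Folds against a group at 0 in every library use a floor of 3 counts per library, and with 1 to 3 counts a 95% counting interval, which cover counting error only. At these depths, 47463546 to 196788239 counts, a fold of a rarely counted member stays wide. Programs that test many genes were tested on simulated data.

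Sequences, exons and positions were from GENCODE M21 on GRCm38, the assembly of mm10, in which 6672 members had the same identifier, version and length. Own words were counted over 116824 listed transcripts with a sequence. Parents were the best-matching transcripts of coding genes by blastn 2.17.0, with coverage of 50% and identity of 70% or more. Genes with a proper name were preferred over those named Gm or -ps, a choice made after seeing the data. A parent is the closest match and no proof of origin: Crb1 drew 64 members and Rfwd2 29. Detection means 1 TPM or more. Python 3.11.15 and pandas 2.3.3 were used.

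Members were named by rule: the 10 of highest mean TPM, the 3 highest with no own word, per comparison the 4 highest and 4 lowest fold changes among called members with 50% or more own words and a mean of at least 100 counts in the higher group, up to 3 per parent of the small RNA, pluripotency and oocyte lists, up to 2 per direction of each other list, and their parents and hosts.

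Alternatives were relative log expression in place of TMM, DESeq2 1.42.0, limma 3.58.1 on log2(TPM + 1) and log2(TPM + 0.1), no filter, a strict filter (CPM of 1 in 2 libraries), transcripts in place of genes, only the compared groups, a replicate block and leaving out each library. With another scale the median over all genes moved as well, in log2: for GV against ESC from −0.51 to −0.16, for MII against EpiC from −1.23 to −0.44 and for MII against GV from −0.53 to −0.18 on log2(TPM + 1). A sequence comparison for 1 further pair is not reported here.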

Additional observations from a re-analysis of the deposited data

Results flagged for a closer look

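The members Gm10221, Gm9769 and Gm5442 passed the test in opposite directions when each oocyte stage was set against cultured cells. On counts scaled by TMM the libraries compared did not overlap. In each case the difference between the 2 contrasts was not tested. Gm10221, identical to the ATP synthase gene Atp5l and with no own word, was 1.56 higher (log2) in GV than in ESC and differed by −1.07 in MII against EpiC. It was listed at 530 and 617 TPM in GV, 30.7 and 55.8 TPM in MII, and 240 to 266 TPM in cultured cells. Gm9769, identical to the chaperone gene Ptges3 and with no own word, differed by −1.75 in GV against ESC and by 1.69 in MII against EpiC on counts scaled by TMM. In TPM it was at 231 and 248 in MII and 315 and 120 in EpiC, which overlap, and on log2(TPM + 1) the second difference was 0.297 and missed the threshold (adjusted p = 0.669), as it did in edgeR fits without EpiC replicate 2 (adjusted p = 0.0945) and with the strict filter (0.0599). Gm5442, at 82.7% identity with the mRNA export gene Gle1 and with 98.3% own words, differed by 3.75 in GV against ESC and by −3.23 in MII against EpiC. It was at 2.21 and 2.62 TPM in GV, 0.0126 and 0.0695 TPM in MII, 0.134 and 0.298 TPM in ESC and 0.441 and 1.78 TPM in EpiC. Its second call was lost without EpiC replicate 2 (adjusted p = 0.190) and without MII replicate 1 (adjusted p = 0.124), and its first without ESC replicate 1 (adjusted p = 0.0576). The first call of Gm10221 was lost in edgeR fits without GV replicate 2 (adjusted p = 0.0559), ESC replicate 1 (0.0599) or ESC replicate 2 (0.0623). Its second call was lost without any 1 library other than MII replicate 2 (adjusted p = 0.0603 to 0.377), and also with DESeq2 (0.0579), relative log expression (0.0676), the compared groups only (0.0517), no filter (0.0783) and transcripts (0.184).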

How the results depend on the processing

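Counts of called members are given as higher and lower. GV against ESC gave 221 and 586, and 109 and 257 with the strict filter and 211 lower with transcripts. Leaving out 1 library gave 156 to 268 higher and 240 to 649 lower. MII against EpiC gave 217 and 751, and 109 and 307 with the strict filter, 439 lower with transcripts and 143 higher on log2(TPM + 1), and without 1 library 162 to 236 and 340 to 748. MII against GV gave 97 and 188, and 56 higher with the strict filter, 30 and 107 with transcripts, 150 higher with the compared groups only and 56 and 383 on log2(TPM + 0.1), and without 1 library 39 to 116 and 96 to 188. EpiC against ESC gave 1 and 9. It gave 16 and 22 with DESeq2, 18 and 43 on log2(TPM + 0.1), 22 and 50 on log2(TPM + 1), 19 and 26 without a filter, 3 higher with relative log expression, 0 and 0 with transcripts, and 0 to 3 and 4 to 8 without 1 library. Calls over all genes moved too, given again as higher and lower. GV against ESC gave 7099 and 7834 of them, 5690 and 6187 with the strict filter and 13408 and 11645 of 69656 transcripts. For EpiC against ESC they were 659 and 708. They were 1519 and 1416 with DESeq2, 1287 and 1538 on log2(TPM + 1) and 36 and 62 with transcripts. The cause of these moves was not tested beyond the fewer features or samples that a setting leaves.

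The libraries share replicate numbers in their titles but nothing says that a number marks a shared animal or culture. Deviations of same-numbered libraries correlated at 0.0655 for GV with ESC, 0.0621 for MII with EpiC, 0.446 for MII with GV and 0.756 for EpiC with ESC, over 25045 genes. With a replicate block the counts were 254 and 741, 235 and 858, 120 and 240, and 10 and 17 in the 4 comparisons in the order above.

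Without Gm42418 and mitochondrial genes in the total, members held 2.11% of the counts in ESC and 2.34% in EpiC. Of the full total, members with 50% or more own words alone held 0.0382%, 0.0222%, 0.0540% and 0.0532% in GV, MII, ESC and EpiC. Of 202 changes of named members, 111 were called in every setting. Of 3393 values of these changes under single settings, 3032 kept direction and call, 355 lost the call and 6 reversed. On log2(TPM + 0.1) and log2(TPM + 1), the change of Eif4a-ps4 in MII against EpiC was −0.0468 and −0.047, that of Ube2n-ps1 in MII against EpiC was −0.4002 and −0.3978, and that of Ube2n-ps1 in MII against GV was −0.0529 and −0.0524, each opposite to the sign with TMM.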
